A study of Mus musculus with 14 samples.

Results

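miR-9 is a microRNA (miRNA) of which both arms, miR-9-5p and miR-9-3p, are described here along the mouse epididymis, the duct in which spermatozoa leaving the testis mature and are stored. Both mature miRNAs are listed in each of the 2 deposited count tables, as 2 of the 900 miRNAs of whole tissue and 2 of the 677 of isolated epithelial cells. They were selected by name with their levels by region in these same libraries known, so those levels and the differences between regions are given as a description, without a test. Small RNA came from male Swiss mice of 8 weeks, untreated and of no stated genotype, whose vasculature had been rinsed with PBS. The epididymis was divided into caput, corpus and cauda, the proximal, middle and distal segments. Whole tissue gave 8 libraries (3 of caput, 2 of corpus, 3 of cauda), each from tissue pooled over 3 mice, and epithelial cells gave 6 libraries, 2 per region, each from cells pooled over more mice. The epithelial cells were those left in suspension once other cells of a trypsin and collagenase digest had attached to plastic.

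A miRNA is cut from a hairpin precursor whose 5p and 3p arms pair with each other, and usually one of them is kept in the Argonaute complex, where its seed, bases 2 to 8, selects messenger RNAs for repression. miR-9 is among the best known miRNAs of the brain, where it acts in neural progenitors and in the formation of neurons, and its 3p arm, earlier called miR-9*, is also functional there. The question put to these data was how much of each arm the segments of the epididymis held, in the tissue and in its epithelial cells.

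The mature sequences are shown because the arms have different seeds and so different targets. They are from RefSeq (GRCm38.p6), in which both miRNAs were found by name, with the seed in capitals and the other bases in lower case, 5′ to 3′.
miR-9-5p: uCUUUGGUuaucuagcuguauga
miR-9-3p: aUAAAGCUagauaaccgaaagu
Among 1679 mature mouse miRNA names in the RefSeq table, 0 others had the seed of miR-9-5p and 0 others had that of miR-9-3p. The arms shared an uninterrupted stretch of 12 complementary bases, positions 6 to 17 of miR-9-5p against positions 5 to 16 of miR-9-3p, counted from each 5′ end. The nearest other mature sequences were miR-9b-5p, 4 edits from miR-9-5p, and miR-9b-3p, 3 edits from miR-9-3p, and neither name was listed in the count tables.

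Each arm has the same sequence at 3 loci, so the counts could not be assigned to a locus. The hairpins are shown because they differ around these identical arms, which are in capitals.
Mir9-1: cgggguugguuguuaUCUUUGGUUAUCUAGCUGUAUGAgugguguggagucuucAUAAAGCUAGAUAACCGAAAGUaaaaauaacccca
Mir9-2: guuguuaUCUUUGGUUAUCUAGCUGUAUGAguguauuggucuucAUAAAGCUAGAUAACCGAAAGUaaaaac
Mir9-3: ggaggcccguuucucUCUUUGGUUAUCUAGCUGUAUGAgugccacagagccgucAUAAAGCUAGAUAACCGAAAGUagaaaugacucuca
Mir9-1 lies on the plus strand of GRCm38 at chr3:88215598-88215686, in introns of the long noncoding RNA gene Gm3764, with the miRNA gene Gm25641 on the opposite strand. Mir9-2 lies on the plus strand at chr13:83738814-83738885, within the long noncoding RNA gene C130071C03Rik, in an exon of 1 of the 3 transcripts that span it and in introns of the other two. Mir9-3 lies on the plus strand at chr7:79505264-79505353, in introns of its host gene Mir9-3hg, a long noncoding RNA. The stretch between the arms is 16 bases long in Mir9-1 and Mir9-3 and 14 in Mir9-2.

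Libraries held 1243398 to 2135501 counts in whole tissue and 89039 to 362867 in epithelial cells. Levels are given as CPM, counts relative to library size after TMM scaling within a preparation, and values set across preparations are CPM of library totals. Every count of miR-9 was a whole number. As a check of the labelled tissue, 6 epithelial markers (miR-200a, b and c, miR-141, miR-429 and miR-205) were present in every region of both preparations. In epithelial libraries they summed to 25970 to 40840 CPM. There 4 smooth muscle markers summed to 143800 to 334700 CPM and both arms of the endothelial miR-126 to 13000 to 56270 CPM. Markers of other cell types were thus not absent from the isolated cells. In the caput the smooth muscle sum was 143800 to 195400 CPM in epithelial cells and 53160 to 65890 in whole tissue. The endothelial sum was 25450 to 35510 against 14770 to 18250, whereas the leukocyte sum was lower, 469 to 859 against 966 to 1160. These sums are on the TMM scale of each preparation. The study's methods describe each library pool as a biological replicate, and a supplementary note calls the replicates technical. Whole tissue caput and cauda have 1 library more than the replicates named in the methods, which also mention analysis of the libraries in triplicate. The p-values may thus cover only technical spread between these libraries.

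miR-9-5p was high in the caput of whole tissue and low in both distal segments. The caput libraries held 2103, 2241 and 2499 counts, or 1352, 1546 and 1371 CPM, which placed miR-9-5p between rank 48 and rank 50 of the 573 to 593 miRNAs above 0 in a library. The corpus libraries held 196 and 91 counts (146 and 59.7 CPM, ranks 134 and 184), and the cauda libraries 136, 130 and 134 counts (70.1, 80.0 and 79.0 CPM, ranks 163 to 173). Every caput library lay above every corpus and cauda library, whereas the range of the cauda lay inside that of the corpus. The caput averaged 1423 ± 107 CPM (SD, n = 3), while the corpus averaged 103 ± 61.3 CPM (SD, n = 2) and the cauda 76.4 ± 5.48 CPM (SD, n = 3). Of the summed means of the 3 regions, 88.8% fell to the caput.

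On the log2 scale of the limma fit, miR-9-5p of whole tissue was lower by 3.94 (SE 0.26, 15.3-fold) in the corpus and by 4.22 (SE 0.23, 18.6-fold) in the cauda than in the caput. Differences of miRNAs at large in these comparisons were common, since 29.9% of the 334 tested were called from caput to corpus and 53.2% of the 355 tested from caput to cauda, where a call needs a false discovery rate (FDR) under 0.05 together with a difference of 2-fold or more. Called miRNAs were 47 higher and 53 lower in the corpus, and 99 higher and 90 lower in the cauda. With library totals in place of TMM, which raised the median difference of all tested by 0.33 and 0.35, the splits were 76 higher and 35 lower in the corpus, and 115 higher and 65 lower in the cauda. In size, the difference of miR-9-5p was the third most negative of both comparisons. From corpus to cauda it was -0.28 (SE 0.30), where 27.3% of 341 miRNAs were called.

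The corpus value rests on libraries that differed from each other. Corpus replicate 1 held 2.45 times the miR-9-5p level of replicate 2 (95% counting interval 1.90 to 3.18), the highest such ratio of the 213 miRNAs with a mean count of at least 50 in the corpus, for which the median ratio was 0.99. The next 3, named after their values were seen, were miR-138-5p (2.43), miR-375-3p (1.79) and miR-200b-5p (1.53). Without corpus replicate 1 the caput level of miR-9-5p was 23.8-fold that of the corpus, and without corpus replicate 2 it was 9.32-fold. The order of corpus and cauda turned with the library, with a log2 difference from corpus to cauda of 0.37 without corpus replicate 1 and -0.94 without corpus replicate 2.

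miR-9-3p, the less abundant arm, was counted almost only in the caput of whole tissue. The caput libraries held 81, 63 and 103 counts (52.1, 43.5 and 56.5 CPM), the corpus libraries 0 and 1, and the cauda libraries 4, 4 and 1. No corpus or cauda library reached the lowest caput library, and corpus and cauda overlapped. The caput averaged 50.7 ± 6.65 CPM (SD, n = 3), while the corpus averaged 0.33 ± 0.46 CPM (SD, n = 2) and the cauda 1.70 ± 0.99 CPM (SD, n = 3). From caput to cauda the log2 difference was -4.83 (SE 0.48), the second most negative of the 355. With 1 count in the corpus, the level in the caput was 147 times that of the corpus with a 95% counting interval of 26.1 to 5810, so that the size of this ratio is poorly known. In whole tissue 96.2% of the summed region means of miR-9-3p fell to the caput, the highest share of the 360 miRNAs identified (mean count above 10 in a region). miR-9-5p had the next highest share, and the median share was 32.8%. miR-9-3p in both preparations and miR-9-5p in epithelial cells passed that threshold through the caput alone, so a high caput share and a negative difference were built into their being ranked.

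**Figure D1:**
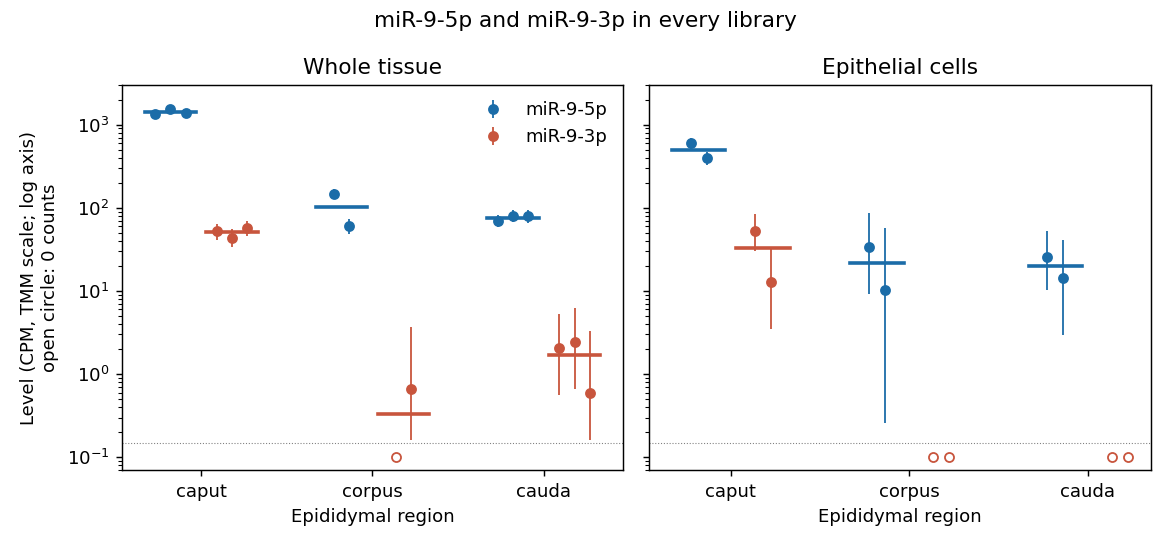
Level of miR-9-5p (blue) and miR-9-3p (red) in each library, in CPM on the TMM scale (log axis), by region, for whole tissue (left) and epithelial cells (right). Points are libraries with 95% counting intervals, whose lower ends are cut off at the dotted line in 2 libraries, horizontal bars are group means, and open circles under the dotted line are libraries with 0 counts. Caput libraries of miR-9-5p lie above all corpus and cauda libraries of the same preparation.

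Epithelial cells gave the same order with fewer counts. The caput libraries held 192 and 124 counts of miR-9-5p (593 and 399 CPM, ranks 79 and 90), those of the corpus 4 and 1 (33.5 and 10.1 CPM), and those of the cauda 7 and 3 (25.9 and 14.2 CPM). Both caput libraries lay above all 4 distal ones, and corpus and cauda overlapped. The caput averaged 496 ± 138 CPM, the corpus 21.8 ± 16.5 and the cauda 20.1 ± 8.24 (SD, n = 2 each), with 92.2% of the summed means in the caput. The log2 difference of miR-9-5p was -4.32 (SE 0.60) from caput to corpus, the most negative of 205 miRNAs, of which 14.1% were called. It was -4.49 (SE 0.53) from caput to cauda, the second most negative of 216, of which 26.4% were called.

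Depth limits these epithelial ratios. From the summed counts of miR-9-5p, the caput level was 21.7 times that of the corpus (95% counting interval 9.21 to 67.4) and 24.0 times that of the cauda (12.9 to 50.5). The corpus level was 1.10 times that of the cauda (0.30 to 3.54), a difference not detectable with 5 and 10 counts, and miR-9-5p was outside the test of that pair because its mean count was not above 10 in either region. Leaving out corpus replicate 1 or 2 of the epithelial cells moved the 20.0-fold fitted difference of miR-9-5p from caput to corpus to 32.1-fold or 13.2-fold. Library totals gave 19 called miRNAs higher and 9 lower from caput to corpus, against 13 and 16 with TMM, 15 higher and 7 lower from corpus to cauda, against 10 and 8, and 42 higher and 21 lower from caput to cauda, against 30 and 27. It raised the median difference of all tested by 0.14 (corpus) and 0.19 (cauda) relative to the caput.

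miR-9-3p had 17 and 4 counts in the caput of epithelial cells (52.5 and 12.9 CPM) and 0 in each of the 4 corpus and cauda libraries. A count of 0 allows up to 3 counts, or 25.1 and 30.4 CPM in the corpus libraries and 11.1 and 14.2 CPM in the cauda libraries, limits that in 3 of the 4 libraries exceed the level of the lower caput library. The 21 caput counts were set against 3 counts over both libraries of a region. The caput level was then 2.41 times the corpus limit and 5.31 times the cauda limit. These ratios leave out the counting error of the caput counts, so they are not lower bounds. The intervals and limits given for epithelial cells cover counting error only.

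Across the 6 groups, on library totals, miR-9-5p was highest in the caput of whole tissue (1226 ± 66.4 CPM, SD, n = 3). The caput of epithelial cells followed with 455 ± 104 (SD, n = 2), then corpus (112 ± 65.2, SD, n = 2) and cauda (83.8 ± 6.56, SD, n = 3) of whole tissue, and corpus (21.4 ± 14.3) and cauda (20.7 ± 5.63) of epithelial cells (SD, n = 2 each). Neighbours in this order had separate ranges except corpus and cauda of whole tissue and corpus and cauda of epithelial cells, whose means differed by less than 1 SD. In every region the mean CPM of miR-9-5p was higher in whole tissue, 2.69-fold for the caput, 5.22-fold for the corpus and 4.04-fold for the cauda. The epithelial values behind the distal ratios rest on 5 counts in the corpus and 10 in the cauda. These ratios and ranges leave out counting error. The tables were counted separately and no test was made across them. For miR-9-3p the caput of whole tissue (43.8 ± 6.33, SD, n = 3) and of epithelial cells (29.6 ± 24.4, SD, n = 2) overlapped.

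The size of the difference from the caput is given for both preparations together as a description, without a test. In a joint limma fit of all 14 libraries over the 194 miRNAs identified in both, the log2 difference of miR-9-5p from caput to cauda had an estimate of -0.23 for epithelial cells minus whole tissue (SE 0.58, 95% interval -1.48 to 1.02). From caput to corpus the estimate was -0.35 (SE 0.62, -1.69 to 0.98). Both intervals reach beyond a 2-fold difference between the preparations, so its size was not resolved.

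The relative use of the arms comes from the same counts as the levels above and is given as a description, without a test. In whole tissue the 5p arm made up 96.3, 97.3 and 96.0% of miR-9 counts in the caput libraries (Clopper-Pearson 95% intervals 95.4 to 97.0, 96.5 to 97.9 and 95.2 to 96.8). It made up 100 and 98.9% in the corpus (98.1 to 100 and 94.1 to 99.97) and 97.1, 97.0 and 99.3% in the cauda (92.9 to 99.2, 92.5 to 99.2 and 95.9 to 99.98). The cauda mean of 97.8 ± 1.26% (SD, n = 3) exceeded the caput mean of 96.5 ± 0.65% (SD, n = 3) by 1.27 percentage points. The ranges of caput and cauda overlapped. With 1 count added to each arm, the difference between cauda and caput was 0.62 points. Both corpus libraries (mean 99.5 ± 0.77%, SD, n = 2) lay above all caput libraries, a mean that rests on 1 count of miR-9-3p.

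Summed over libraries, miR-9-5p had 27.7 times the counts of miR-9-3p in the caput of whole tissue and 15.05 times in that of epithelial cells. In the epithelial caput the 5p share was 91.9% (87.3 to 95.2) and 96.9% (92.2 to 99.1), and only the second of these lay within the range of the whole tissue caput. All 15 counts of miR-9 in the distal epithelial libraries were 5p, 5 in the corpus and 10 in the cauda, which leaves intervals for the 5p share of 47.8 to 100% and 69.2 to 100%. To place this arm balance, 85 miRNA names with both arms listed and at least 1000 counts in the caput of whole tissue were compared, a set chosen after the values were seen. The more abundant arm was 5p in 55 of them and 3p in 30, and its share had a median of 98.7%, with 54 names above the 96.5% of miR-9 and 30 below.

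**Figure D2:**
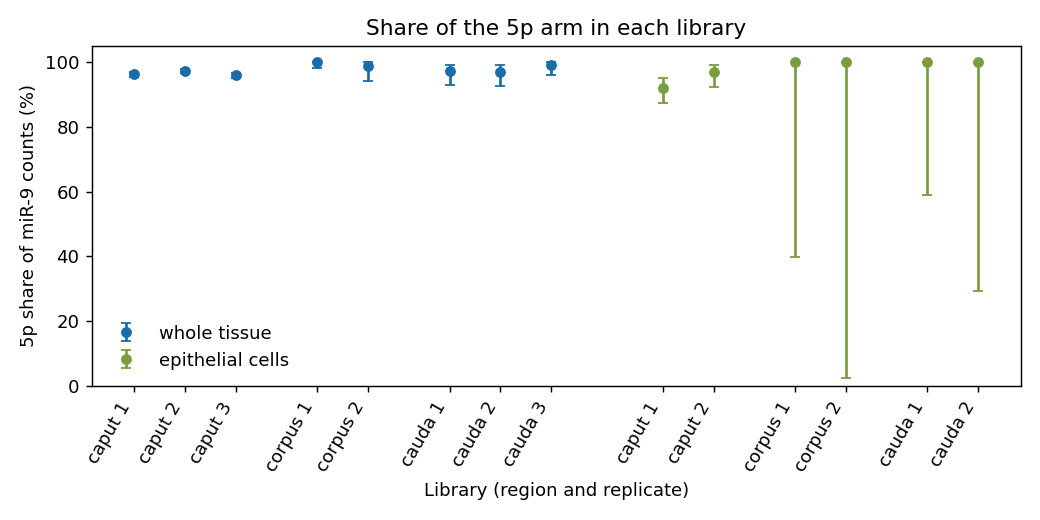
Share of the 5p arm in the miR-9 counts of each library (percent), for whole tissue (blue) and epithelial cells (green), with Clopper-Pearson 95% intervals. Shares lie between 91.9 and 100%, and the intervals of the distal epithelial libraries, with 1 to 7 counts each, are wide.

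The miRNAs whose region profile was nearest to that of miR-9-5p were found as those with the least Euclidean distance between region means of log2 CPM, each centred on its mean over the 3 regions, a description over 3 points. In whole tissue, among 359 miRNAs with a median distance of 3.36, these were miR-31-3p (0.74), miR-669a-5p and miR-669p-5p (0.87 each), miR-146b-5p (1.04) and miR-466g (1.14). miR-669a-5p and miR-669p-5p had identical and partly fractional counts, which cannot be told apart. miR-31-3p had 24 to 40 counts in the caput and 1 to 7 in the other libraries. miR-146b-5p, known from inflammation and immune signalling, was the more abundant, with a caput mean of 365 ± 91.3 CPM (SD, n = 3), a corpus mean of 55.0 ± 12.0 (SD, n = 2) and a cauda mean of 48.3 ± 9.95 (SD, n = 3). miR-9-3p was 23rd, at a distance of 1.82, with centred values of 3.74 (caput), -2.65 (corpus) and -1.09 (cauda) against 2.71, -1.21 and -1.50 for miR-9-5p. Its corpus value rests on 1 count.

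In epithelial cells, among 215 miRNAs with a median distance of 3.56, the nearest were miR-9-3p (1.24), miR-146b-5p (1.27), miR-148a-5p (1.80), miR-31-5p (1.90) and miR-138-5p (1.93). The place of miR-9-3p rests on its caput counts, since its distal values, all from 0 counts, were set by the prior count of 0.5 and the library sizes. 1 of the 5 names, miR-146b-5p, was thus shared by both preparations. miR-31-3p and miR-466g were not among the epithelial miRNAs compared, and miR-669a-5p and miR-669p-5p were 7th and 8th there. The epithelial counts of miR-146b-5p were 242 and 312.5 (caput), 21 and 9 (corpus), and 26 and 24 (cauda). miR-138-5p, the 5th in epithelial cells, was 6th in whole tissue. miR-31-5p was 115th there, with caput libraries at 275, 314 and 263 CPM, corpus libraries at 100.1 and 104 CPM and cauda libraries at 297, 292 and 236 CPM, so that its cauda level returned to that of the caput.

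**Figure D3:**
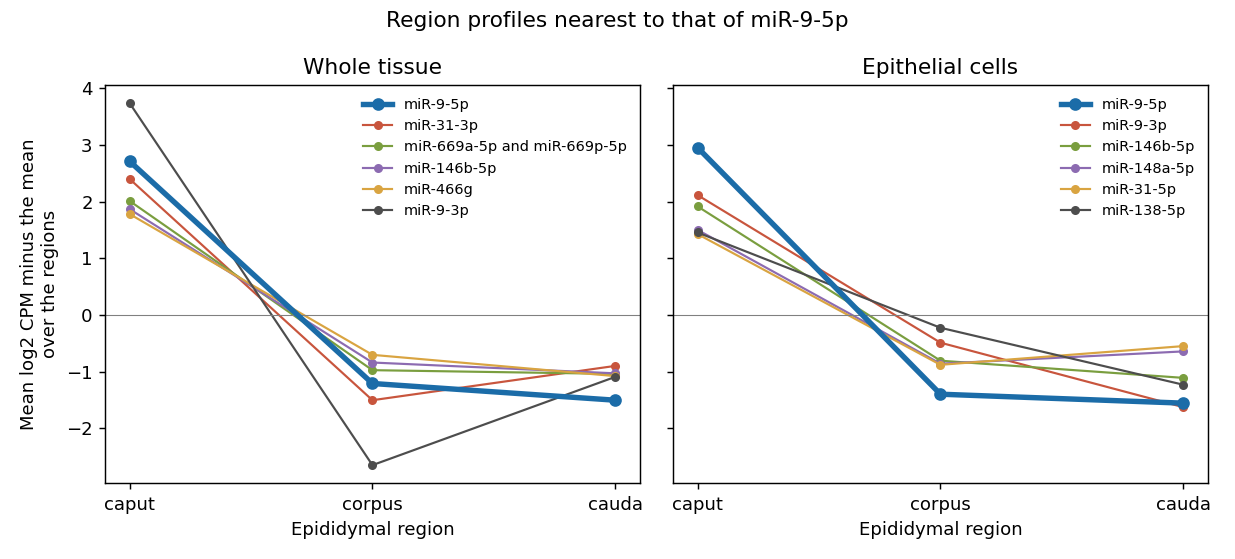
Mean log2 CPM of each region minus the mean over the 3 regions, for miR-9-5p (thick blue line), the 5 miRNAs nearest to it in each preparation and, in whole tissue, miR-9-3p. All lines drawn are highest in the caput, and that of miR-9-5p spans from 2.71 to -1.50 in whole tissue and from 2.95 to -1.56 in epithelial cells.

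Other miRNAs known from the brain did not share one direction. A list of 18 names was compared, of which 17 were listed in whole tissue and 16 in epithelial cells. In whole tissue 8 of them could be tested against the cauda and 6 between caput and corpus. miR-124-3p and miR-137-3p passed the filter through their cauda counts alone, so a difference was built into their selection and they are left out of the counts that follow. Of the other 6, 4 were called from caput to cauda, 2 higher and 2 lower, where 27.9% of all tested were called higher and 25.4% lower, and 44.3% of the 282 miRNAs with a mean count above 10 in both regions were called in either direction. Their median log2 difference was 0.29, against -0.12 for those 282. From corpus to cauda 3 of the 6 were called, 1 higher and 2 lower, against 23.6% of the 288 miRNAs above 10 in both regions, with a median of 0.20 against -0.03. Over all tested, 14.4% were called higher and 12.9% lower. From caput to corpus 1 of 6 was called, which was lower, against 24.8% of 282 in either direction, with a median of 0.14 against -0.02. Over all tested, 15.9% were called lower.

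miR-138-5p, which is known for limiting the size of dendritic spines, was the list member nearest to miR-9-5p in region profile. In whole tissue the caput libraries held 984, 1329 and 1187 counts of it, those of the corpus 301 and 141, and those of the cauda 86, 72 and 93, so that no regions overlapped. It fell by 2.33 (SE 0.30) on the log2 scale from caput to corpus (adjusted p = 0.00012, limma with Benjamini-Hochberg adjustment) and fell by 3.92 (SE 0.30) from caput to cauda (limma adjusted p = 1.2e-06). From corpus to cauda it fell by 1.58 (SE 0.36, limma adjusted p = 0.0046), a call lost without corpus replicate 1. Its levels were 734 ± 159 CPM in the caput and 47.8 ± 6.07 in the cauda (SD, n = 3 each).

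The other list members named had few counts in the caput or smaller differences than miR-138-5p. miR-124-3p, the most specific miRNA of neurons, had 2, 0 and 1 counts in caput libraries, 1 and 2 in those of the corpus and 17, 9 and 8 in those of the cauda, 10.4 times the caput level (95% counting interval 3.27 to 52.9). Its counts are given as a description, since it was tested only because of its cauda level and, without cauda replicate 1, was not tested at all. miR-137-3p, a regulator of neuronal maturation, had 0, 1 and 0 counts in caput libraries, 1 and 1 in those of the corpus and 31, 19 and 21 in those of the cauda, and is likewise described only. miR-132-3p, which is induced by neuronal activity, rose by a log2 difference of 1.89 (SE 0.42) from caput to cauda (limma adjusted p = 0.0021). miR-338-3p, known from oligodendrocytes, rose by 1.22 (SE 0.15) over the same interval and by 1.32 (SE 0.18) from the corpus (limma adjusted p = 4.6e-05 and 0.00022). miR-153-3p fell by 1.17 (SE 0.16) from caput to cauda (limma adjusted p = 7e-05), where library totals gave -0.83, under 2-fold, and by 1.55 (SE 0.17) from corpus to cauda (limma adjusted p = 4.7e-05).

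In epithelial cells most of the list was counted too rarely for a comparison. With a mean count above 10 in both regions there was 1 list member from caput to corpus, 1 from corpus to cauda and 4 from caput to cauda. Of these 4, limma, edgeR and DESeq2 called 0, and 0 had an unadjusted p below 0.05, where limma called 19.5% of the 174 miRNAs above 10 in both regions. miR-132-3p was among them, with a log2 difference of -0.48 (SE 0.41) from caput to cauda. miR-138-5p, with 64 and 40 counts (caput), 8 and 3 (corpus), and 6 and 5 (cauda), passed the filter only through the caput, so its calls by limma in both comparisons with the caput are given as a description. Its log2 difference was -2.69 (SE 0.47) from caput to cauda and -1.66 (SE 0.48) from caput to corpus, and both caput libraries lay above all 4 distal ones. The call from caput to corpus was lost with DESeq2's Wald test, with library totals, with only the 2 regions compared, and without either library of the caput, either of the corpus, or cauda replicate 2. Of all miRNAs tested, 7.80% were called lower from caput to corpus and 12.5% from caput to cauda. From corpus to cauda 3 of the 4 list members tested had likewise passed through 1 region alone, and limma, edgeR and DESeq2 called 0 of the 4 (1 at an unadjusted p below 0.05), where 9.38% of all 192 miRNAs were called.

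**Figure D4:**
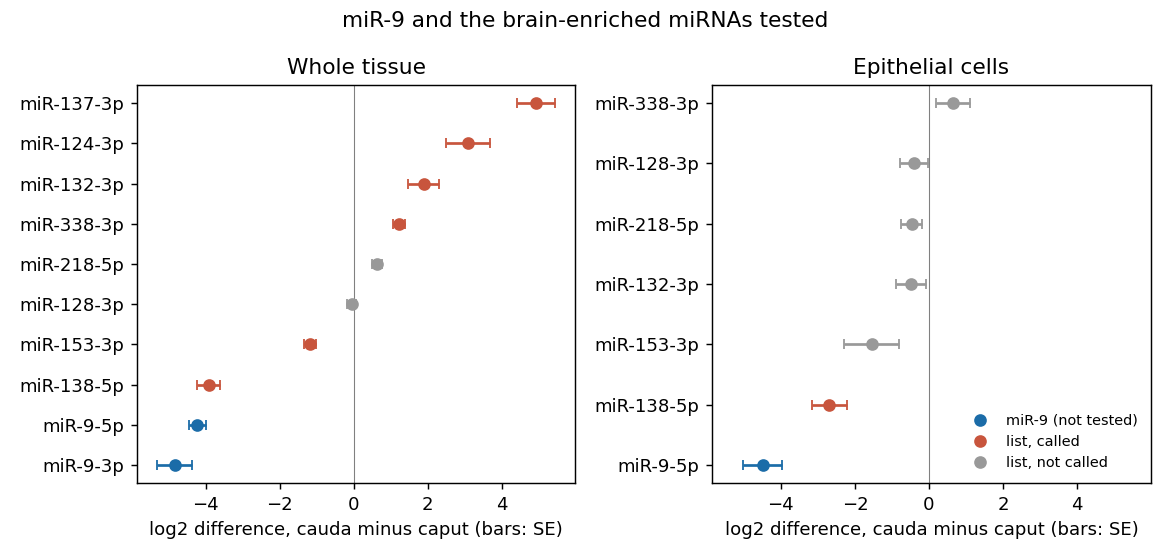
Log2 difference from caput to cauda (cauda minus caput, with SE) of miR-9 (blue, not tested) and of the brain-enriched miRNAs tested, red where called and grey where not, for whole tissue (left) and epithelial cells (right). In whole tissue values run from -4.83 for miR-9-3p to 4.92 for miR-137-3p, which had 1 count in the caput. miR-137-3p and miR-124-3p in whole tissue, and miR-138-5p and miR-153-3p in epithelial cells, were tested through 1 region alone. miR-9-3p is not drawn for epithelial cells, where its cauda libraries had 0 counts.

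Markers of cell types also differed between the regions, some in the direction of miR-9 and others not. The 5 neuronal markers summed to 804 to 1114 CPM in caput libraries of whole tissue, 266 to 389 in those of the corpus and 180 to 199 in those of the cauda, a decline carried by miR-138-5p, whose levels are given above. miR-153-3p was also called lower in the cauda, whereas miR-128-3p had 111 ± 14.04 CPM in the caput and 106 ± 2.88 in the cauda (SD, n = 3 each), and miR-124-3p had 8 to 17 counts in the cauda against 0 to 2 in the caput. Of these 5, all were listed and 4 passed the identification threshold. The defining marker miR-124-3p was at 0 to 2 counts in every caput and corpus library of whole tissue and at 0 in 5 of the 6 epithelial libraries. miR-129-5p, another neuronal marker, had 1 count in each caput library of whole tissue. The 6 epithelial markers, all identified, summed to 21880 to 23680 CPM (caput), 17390 to 18220 CPM (corpus) and 8184 to 9902 CPM (cauda) of whole tissue, a smaller relative decline than that of miR-9-5p. In epithelial cells the same markers were lowest in the caput, at 25970 to 28310 CPM, while miR-9-5p was highest there. The neuronal markers of epithelial cells summed to 318 to 430 CPM (caput), 167 to 183 CPM (corpus) and 126 to 204 CPM (cauda), with both caput libraries above the distal ones, as for miR-9-5p. Among them miR-138-5p differed most, with means of 163, 48.7 and 22.95 CPM. From caput to cauda the means of miR-153-3p (61.1 to 22.1) and miR-129-5p (19.0 to 11.6) were also lower. miR-128-3p overlapped between caput (142 and 119) and cauda (70.3 and 142), and miR-124-3p had 0 counts in the caput.

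In whole tissue the sums of smooth muscle, erythroid, leukocyte and germ cell markers were higher in the cauda than in the caput. The germ cell sum of the corpus (4429 to 5262 CPM) lay within the range of the caput. The 4 smooth muscle markers summed to 53160 to 65890 CPM in the caput and 223200 to 249500 in the cauda, the 3 erythroid markers to 83.4 to 95.2 and 832 to 1308, the 5 leukocyte markers to 966 to 1160 and 1950 to 1993, and the 8 germ cell markers to 4068 to 5264 and 9291 to 12010. Endothelial markers overlapped between caput (14770 to 18250) and cauda (16400 to 17320). In epithelial cells erythroid markers were likewise higher in the cauda (1553 to 2908) than in the caput (371 to 451), as were leukocyte markers (1371 to 1575 against 469 to 859), whereas smooth muscle markers (157300 to 334700 against 143800 to 195400) and germ cell markers (2363 to 5700 against 3782 to 4255) overlapped. Endothelial markers of epithelial cells did not overlap between regions, at 25450 to 35510 CPM (caput), 13000 to 14770 CPM (corpus) and 46310 to 56270 CPM (cauda). The part of these shifts in the levels of miR-9 was not tested, and in bulk RNA fewer cells of a type and less miRNA per cell cannot be told apart.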

How the data were processed

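Small RNA libraries of mouse epididymis were made with Illumina protocols. Reads were called with CASAVA 1.8.2, trimmed, screened against PhiX, adaptor, mitochondrial and ribosomal sequences and aligned to mm10 and the mature miRNAs of miRBase release 21, with Bowtie 1.1.1 named in the submitters' processing notes. How reads matching several miRNAs were divided is not given in the sources used here. Each preparation has 1 deposited table of expected counts, without normalization. Every value for epithelial cells had 0.001 added, which was removed here.

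Counts were rounded, scaled by TMM (edgeR 4.0.16) and fitted with limma-voom (limma 3.58.1, R 4.3.3) per preparation, with a mean per region. The miRNAs tested had a mean count above 10 in either region compared. A miRNA was called with a Benjamini-Hochberg adjusted p (FDR) under 0.05 together with a difference of 2-fold or more. Standard errors are those of the fit. On simulated data of whole tissue with 4-fold changes, 87 of 87 changed miRNAs tested from caput to cauda were recovered, and 92 of 95 in epithelial cells. The simulated spread was fixed in advance and not estimated from these libraries. The recovery checks the running of the fit and does not give its power on the real counts. Nearest profiles used a prior count of 0.5. Shares of the arms were described with exact Clopper-Pearson intervals (scipy 1.17.1), and the permutation test planned for them is not reported because they share their counts with the levels that chose miR-9. Count ratios were given exact conditional binomial intervals on summed counts and TMM library sizes.

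Both arms of miR-9 are named in every library, with the 5 nearest profiles per preparation, the called members of the brain-enriched list and the marker lists. The members, lists and tests were chosen with earlier results of these data known. Alternatives were edgeR's quasi-likelihood test, DESeq2 1.42.0 (its Wald test and its size factors), library totals, all miRNAs with at least 1 count, only the 2 regions compared, a replicate block by the replicate numbers in the sample titles, which met the pairing criterion (every correlation of deviations above 0.1 over 3 pairs) only for caput and cauda of whole tissue, and leaving out each library. Genomic contexts are from GENCODE M21 (GRCm38).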

Additional observations from a re-analysis of the deposited data

How the results depend on the processing

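The log2 differences of miR-9-5p between the caput and both distal regions of each preparation, and of miR-9-3p from caput to cauda of whole tissue, stayed negative under every alternative run. Library totals gave -3.87 for miR-9-5p from caput to cauda of whole tissue, a move of more than 1 SD. With each library left out in turn, miR-9-5p of whole tissue lay between -4.57 and -3.22 (caput to corpus), -0.94 and 0.37 (corpus to cauda), and -4.24 and -4.10 (caput to cauda). Those of epithelial cells lay between -5.005 and -3.72 (corpus) and -4.82 and -4.14 (cauda) relative to the caput, and miR-9-3p of whole tissue between -5.10 and -4.34 from caput to cauda.

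In whole tissue the numbers of miRNAs called stayed within 1.5 times those reported, at 77 to 129 (caput to corpus), 77 to 117 (corpus to cauda) and 172 to 257 (caput to cauda) under the alternatives that kept all libraries. In epithelial cells some moved by more than 1.5 times. Testing all miRNAs with at least 1 count gave 51 calls between caput and corpus (29 as reported) and 36 between corpus and cauda (18 as reported). Leaving out each epithelial library gave 12 to 35, 4 to 28 and, from caput to cauda, 29 to 58 calls (57 as reported). The first number was 18 without caput replicate 1 and 12 without caput replicate 2 or corpus replicate 1, the second was 5, 4, 8 and 28 without caput replicate 2, corpus replicate 1, corpus replicate 2 and cauda replicate 2, and the third was 29 without caput replicate 2. A lone library left is assumed to vary like the others. In the list of brain-enriched miRNAs, library totals and testing all miRNAs with at least 1 count each gave 2 calls from caput to corpus of whole tissue instead of 1. In epithelial cells 0 were called from caput to corpus with library totals, with DESeq2's Wald test or with only the 2 regions compared. With each library left out, in whole tissue the list calls lay between 1 and 2 for caput against corpus (2 without corpus replicate 2) and between 3 and 5 for corpus against cauda (3 without corpus replicate 1), and between 0 and 1 from caput to corpus in epithelial cells. These list counts include members tested through 1 region alone (miR-124-3p and miR-137-3p in whole tissue, miR-138-5p in epithelial cells), and miR-124-3p was not tested without cauda replicate 1, which gave 4 calls from corpus to cauda and 5 from caput to cauda. The cause of these moves was not tested.

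The 5p share differed by 0.55 to 1.67 points with each library left out, and 4 or 5 of the 5 nearest profiles were shared with each alternative. The difference between preparations was -0.43 with library totals and -0.60 to 0.11 with each library left out.

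Deviations from region means correlated between same-numbered libraries of whole tissue by 0.234, 0.135 and 0.101 for caput and cauda, by 0.205 and 0.138 for corpus and cauda, and by 0.016 and 0.028 for caput and corpus, so the numbers may pair caput with cauda but not every region. In epithelial cells the correlations lay between -0.138 and 0.185. With a replicate block, miR-9-5p differed from caput to cauda by -4.22 in whole tissue and -4.49 in epithelial cells, miR-9-3p by -4.71 in whole tissue, and calls were 102, 101 and 187 in whole tissue and 24, 14 and 51 in epithelial cells (caput to corpus, corpus to cauda, caput to cauda). The replicate block changed none of the calls of brain-enriched miRNAs counted here. A crossed replicate block with the epithelial cauda numbers swapped, chosen after seeing the data, gave 35, 28 and 60 calls.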
